A study of Mus musculus with 47 samples.

Results

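The 44 genes described here belong to the vesicle coats that shuttle between the endoplasmic reticulum (ER) and the Golgi apparatus, in the hippocampus of young and old mice given platelet factor 4 (PF4) or vehicle (Veh). The genes were taken by name as rows of the hippocampal count table, in a list drawn up with earlier results of these data known: the COPII and COPI coats, the Arf switch and its regulators, cargo receptors and Golgi matrix proteins, with Arfgap3 and Sec16a among them. All 44 were found among the 35486 genes of the table, and all 44 were among the 17778 genes that passed the filter on low counts.

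The study asked how age and PF4, a chemokine that platelets release, change gene expression in the hippocampus. RNA came from whole hippocampus of male C57BL/6J mice and was sequenced as unstranded full-length cDNA (Smart-Seq2). The 4 groups were Young Veh (n = 13, 3.75 to 5.26 months old), Young PF4 (n = 12, 4.08 to 5.03 months), Old Veh (n = 12, 17.47 to 19.97 months) and Old PF4 (n = 10, 17.4 to 20.23 months). Vehicle stood in for PF4 in the Veh groups and no group was genetically altered. The libraries held between 2242879 and 21112908 counted reads, and 8 of the 47 held fewer than 5000000 (1 Young Veh, 2 Young PF4, 4 Old Veh and 1 Old PF4). All 10 markers of hippocampal neurons had reads in every library. Young Veh replicate 4 and Old PF4 replicate 8 stood apart for the genes described here, as the highest or lowest of their groups for 27 and 26 of the 44 members. For 12 members the gap between Old PF4 replicate 8 and the rest of its group passed a test for outliers, which was not run in the larger groups. In Young Veh replicate 4 the widest gaps included Cope, at 183 CPM with the next library at 113, and Kdelr2, at 95.9 CPM with the next at 49.6. The length index measures how strongly long transcripts are represented against short ones. It was lowest in these libraries, at -0.348 in Young Veh replicate 4 and -0.228 in Old PF4 replicate 8. Beside many of the counts and genes that these libraries move most, the value without the library is given.

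Newly made secretory and membrane proteins leave the ER in vesicles coated with COPII. The GTPase Sar1 and its exchange factor Preb (Sec12) start the coat, Sec23 and Sec24 form the inner layer that picks cargo, and Sec13 and Sec31 form the outer cage, on exit sites that Sec16 organises. COPI coats run the other way, from the Golgi back to the ER and within the Golgi, when the exchange factor Gbf1 loads Arf GTPases with GTP, and ArfGAP proteins such as Arfgap3 end the cycle by triggering GTP hydrolysis. Neurons use this route for receptors, channels and adhesion proteins of synapses and dendrites.

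Arfgap3 and Sec16a carry the results below, so the 100 bases before the start of each are shown, from RefSeq on GRCm38.p6. Capitals mark GGGCGG, the GC box, which 32.7% of 32851 promoters hold in the 250 bases before the start on either strand, and 27 of the 44 member promoters.
Arfgap3, chr15:83350248-83350347, minus strand: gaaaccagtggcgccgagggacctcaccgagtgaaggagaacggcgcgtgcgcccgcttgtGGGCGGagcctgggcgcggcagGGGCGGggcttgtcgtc
Sec16a, chr2:26445217-26445316, minus strand: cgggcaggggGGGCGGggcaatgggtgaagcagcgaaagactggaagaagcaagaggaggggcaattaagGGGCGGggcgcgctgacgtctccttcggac
A set of 4 stress-response motifs was searched on both strands of the same 250 bases in the 44 promoters that RefSeq gives for 39 members: the ER stress element (CCAAT and CCACG with 9 bases between them), the unfolded protein response element TGACGTGG, the Golgi stress element ACGTGGC and the cyclic AMP response element TGACGTCA. The windows of Arfgap3 and Sec16a held none of the 4. The Golgi stress element was in 8 member promoters (Arf1, Sec16b, Sec24c, Sec24d and Tmed3 on the strand of the gene, and Arf5, Kdelr3 and Sar1a on the opposite strand), against 2.02% of all promoters. The unfolded protein response element was in 6 (Arf1, Sec16b and Sec24d on the strand of the gene, and Copb1, Gbf1 and Kdelr3 on the opposite strand), against 0.563%. In Arf1, Sec16b, Sec24d and Kdelr3 the motifs overlap in the same 9 bases, TGACGTGGC, which Kdelr3 holds as its reverse complement GCCACGTCA. The cyclic AMP response element was in 1 (Cope), against 1.55%, and the ER stress element was in 0, against 0.113%. Windows of up to 60 bases around the Golgi stress element are shown for the 3 promoters where the window holds no exon, with the element in capitals, for Kdelr3 in its reverse form GCCACGT.
Sec24c, chr14:20674220-20674279, plus strand: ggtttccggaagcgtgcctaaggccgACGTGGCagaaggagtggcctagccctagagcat
Tmed3, chr9:89705211-89705270, minus strand: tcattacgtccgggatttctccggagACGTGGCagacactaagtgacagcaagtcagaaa
Kdelr3, chr15:79516351-79516407, plus strand: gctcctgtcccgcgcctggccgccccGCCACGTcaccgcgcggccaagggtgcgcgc

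In Young Veh mice Arf and Sar1 GTPases held 5 of the 6 highest levels among the members. Levels between genes are compared as CPM (counts scaled to a common library total) per kilobase of the longest annotated transcript. Arf1, the main GTPase of COPI assembly, was highest at 162 ± 5.28 CPM per kilobase (SD, n = 13), and Arf5 and Arf4 followed at 138 ± 19.6 and 83.5 ± 6.57. Sar1a, the more abundant of the pair of Sar1 genes, reached 76.0 ± 5.62, and Sar1b 67.6 ± 11.4, so that the spreads of this pair overlap. Copg1, a subunit of the COPI adaptor, was the highest COPI gene at 69.6 ± 1.93. Sec16a, a long transcript, stood at 6.26 ± 0.567 and Arfgap3 at 8.43 ± 0.506, ranks 41 and 39 of the 44, and only Sec24a, Kdelr3 and Sec16b were below Sec16a. Kdelr3 and Sec16b were hardly detected. Kdelr3, a receptor that returns ER proteins, averaged 0.661 ± 0.313 CPM per kilobase with 377 reads over all libraries, and Sec16b, the shorter relative of Sec16a, averaged 0.135 ± 0.109 with 375 reads. Ddx17, which overlaps Kdelr3 on the opposite strand, had 29662 reads, and unstranded reads of such a pair cannot be told apart. Of the 44 members, 41 averaged at least 10 CPM in Young Veh, and 28 varied by less than 10% (coefficient of variation) between the 13 libraries. The level of Mia3 (37.8 ± 1.72) rests on a longest annotated transcript of 2961 bases, and the annotation tags its locus as fragmented.

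**Figure D1:**
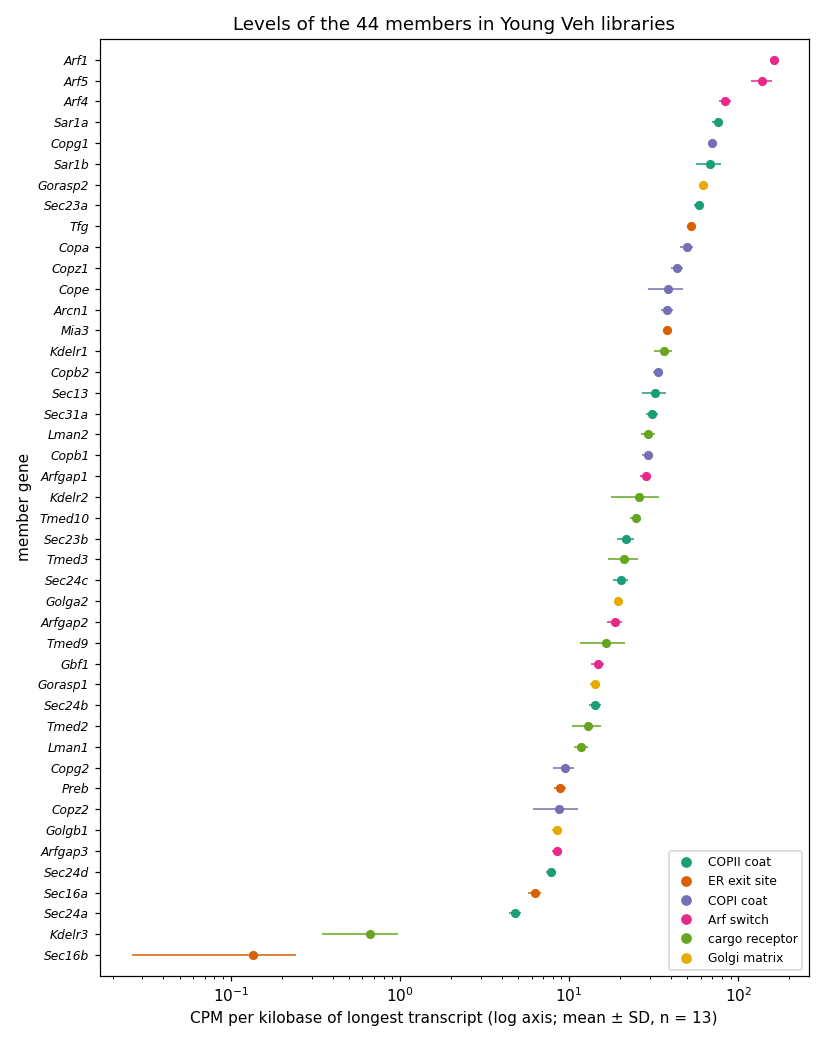
Mean CPM per kilobase of the longest transcript (log axis) of each member in the 13 Young Veh libraries, with SD as bars and roles as colours. Arf1 leads at 162, Sec16a and Arfgap3 lie at 6.26 and 8.43, and Kdelr3 and Sec16b lie apart at 0.661 and 0.135.

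Old Veh mice differed from Young Veh mice in 3 of the 44 members: Sec16a rose, and Arfgap3 and Lman2 fell. The 3 members called are 6.82% of the list, and 2.77% of all genes tested were called in this comparison (edgeR's quasi-likelihood F test, with adjusted p below 0.05 by the Benjamini-Hochberg method over all genes). The share of all genes called was 2.16% for a rise and 0.607% for a fall. Sec16a and Arfgap3 are named in the rule of the list, which was drawn up with earlier results of these data known. The share of members called therefore does not test the list. At an unadjusted p below 0.05 there were 9 members (20.5%), against 15.2% of all genes. Of the members 34 were below 0 and 10 above, where 45.3% of all genes were above 0, and their median log2 fold change was -0.033 beside a median over all genes of -0.013. Without Young Veh replicate 4 the members split into 26 below 0 and 18 above, with a median of -0.016 (-0.0058 over all genes), and 3 were called (Sec16a, Arfgap3 and Sec31a).

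Sec16a (ENSMUSG00000026924, chr2:26409431-26445216, minus strand, GRCm38), the scaffold of ER exit sites, lay between 44.8 and 65.2 CPM in Young Veh libraries with a median of 55.2. In Old Veh libraries it lay between 57.0 and 72.5 CPM with a median of 66.5. Every one of the 12 Old Veh libraries was above the Young Veh median and 7 were above every Young Veh library, so the groups overlapped in part. The log2 fold change was 0.25 (SE 0.050, edgeR adjusted p = 0.00172), and it stayed called whichever of the 25 libraries was left out. Without Young Veh replicate 4 the log2 fold change was 0.22, and without the libraries of fewer than 5000000 reads it was 0.22 and no longer called (edgeR adjusted p = 0.0544).

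Arfgap3 (ENSMUSG00000054277, chr15:83299739-83350247, minus strand), a GTPase-activating protein for Arf1 on the Golgi, lay between 19.6 and 23.8 CPM in Young Veh libraries with a median of 22.2. Old Veh libraries lay between 16.38 and 22.003 CPM with a median of 19.5. All 12 Old Veh libraries were below the Young Veh median and 6 were below every Young Veh library. The log2 fold change was -0.18 (SE 0.048, edgeR adjusted p = 0.0239). The call was lost without Old Veh replicate 8 (log2 fold change -0.16, edgeR adjusted p = 0.0533), without Old Veh replicate 1 and without the libraries of fewer than 5000000 reads.

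Lman2 (VIP36, chr13:55343833-55362783, minus strand), a lectin that carries glycoproteins between the ER and the Golgi, lay between 103 and 153 CPM in Young Veh libraries with a median of 124. In Old Veh libraries it lay between 104 and 133 CPM with a median of 110. One Old Veh library was above the Young Veh median, and the ranges overlapped almost wholly. The log2 fold change was -0.17 (SE 0.050, edgeR adjusted p = 0.0441). This call was held with 13 of the 25 libraries left out in turn, and was lost without Old Veh replicates 1, 2, 3, 5, 6, 7 or 8 or Young Veh replicates 2, 3, 4, 5 or 13, when the log2 fold change ranged from -0.19 to -0.15 over all 25. It was also lost with no count filter (-0.17), with only the groups compared (-0.17), with the length index (-0.13) or the choroid plexus score (-0.14) as a covariate and without the libraries of fewer than 5000000 reads (-0.14). Sec16a, Arfgap3 and Lman2 overlap no other annotated gene.

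**Figure D2:**
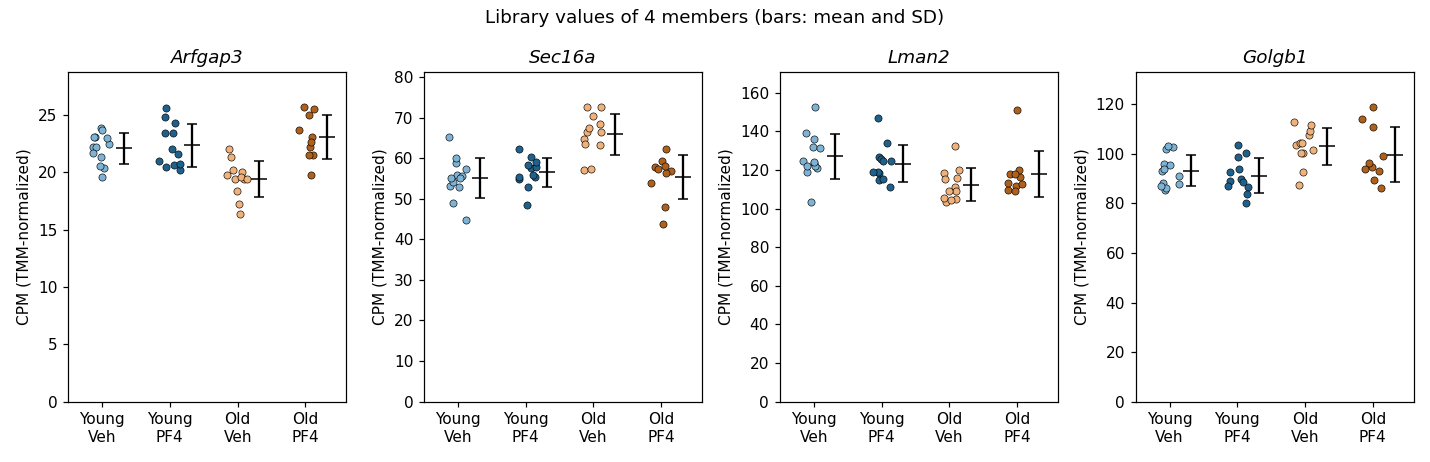
TMM-normalized CPM of Arfgap3, Sec16a, Lman2 and Golgb1 in each of the 47 libraries (points) by group, with the group mean and SD beside them. Old Veh libraries sit low for Arfgap3 (median 19.5 against 22.2 in Young Veh) and high for Sec16a (66.5 against 55.2), and Old PF4 libraries (22.9 and 57.0) lie near the young ones.

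The remaining members by role were as follows in Old Veh against Young Veh. In the COPII coat 0 of 10 genes were called and 8 were below 0 (6 without Young Veh replicate 4). The smallest p was that of Sec31a, the outer cage, with a median of 133 CPM (108 to 143) in Young Veh and 120 CPM (110 to 132) in Old Veh. Its log2 fold change was -0.12 (SE 0.040, edgeR adjusted p = 0.103), and it was called at -0.14 with the length index as a covariate (edgeR adjusted p = 0.00996) and without Young Veh replicate 4 (edgeR adjusted p = 0.0290). Sec24d, a cargo-binding subunit, had a log2 fold change of -0.12 (SE 0.052, edgeR unadjusted p = 0.0245). Of the 5 ER exit site genes, Sec16a alone was called, and Sec16b had too few reads to resolve a change (log2 fold change 0.24, SE 0.35). Preb, Tfg and Mia3 had log2 fold changes between -0.036 and 0.008.

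In the COPI coat 0 of 9 genes were called. Copz1, the zeta subunit, had the smallest p, with a median of 105 CPM (93.7 to 125) in Young Veh and 99.1 CPM (89.3 to 108) in Old Veh and a log2 fold change of -0.10 (SE 0.039, edgeR unadjusted p = 0.0161). Copg1, the most abundant COPI gene per kilobase, had a log2 fold change of -0.010 (SE 0.030). In the Arf group Arfgap3 alone of 7 was called. Its relatives had log2 fold changes of 0.020 (SE 0.040, Arfgap1) and -0.024 (SE 0.059, Arfgap2), the latter overlapped by 1110051M20Rik with 65583 reads on the opposite strand. Arf4 had a log2 fold change of -0.091 (SE 0.042, edgeR unadjusted p = 0.035), and Arf1 one of -0.002 (SE 0.030).

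All 9 cargo receptors were below 0 in Old Veh, with Lman2 alone called and a median of -0.054. Without Young Veh replicate 4, 5 of the 9 were below 0, with a median of -0.022. Kdelr3 had the widest value, -0.62 (SE 0.35), on 0 to 21 reads a library. In the Golgi matrix 0 of 4 were called. Golgb1 (giantin), the long tether of COPI vesicles, had a median of 93.1 CPM (85.4 to 103) in Young Veh and 104 CPM (87.7 to 113) in Old Veh, with 7 of the 12 Old Veh libraries above every Young Veh library. Its log2 fold change of 0.14 (SE 0.047, edgeR adjusted p = 0.0883) missed the threshold, which it passed without Old Veh replicate 2 (0.16, edgeR adjusted p = 0.0406), without Old Veh replicate 11 and with a filter at a mean CPM of at least 5 (edgeR adjusted p = 0.0494). Gorasp1 (GRASP65), a stacking protein, had a log2 fold change of -0.091 (SE 0.041, edgeR unadjusted p = 0.031), but Cx3cr1 and Wdr48 overlap it with 68699 reads together.

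**Figure D3:**
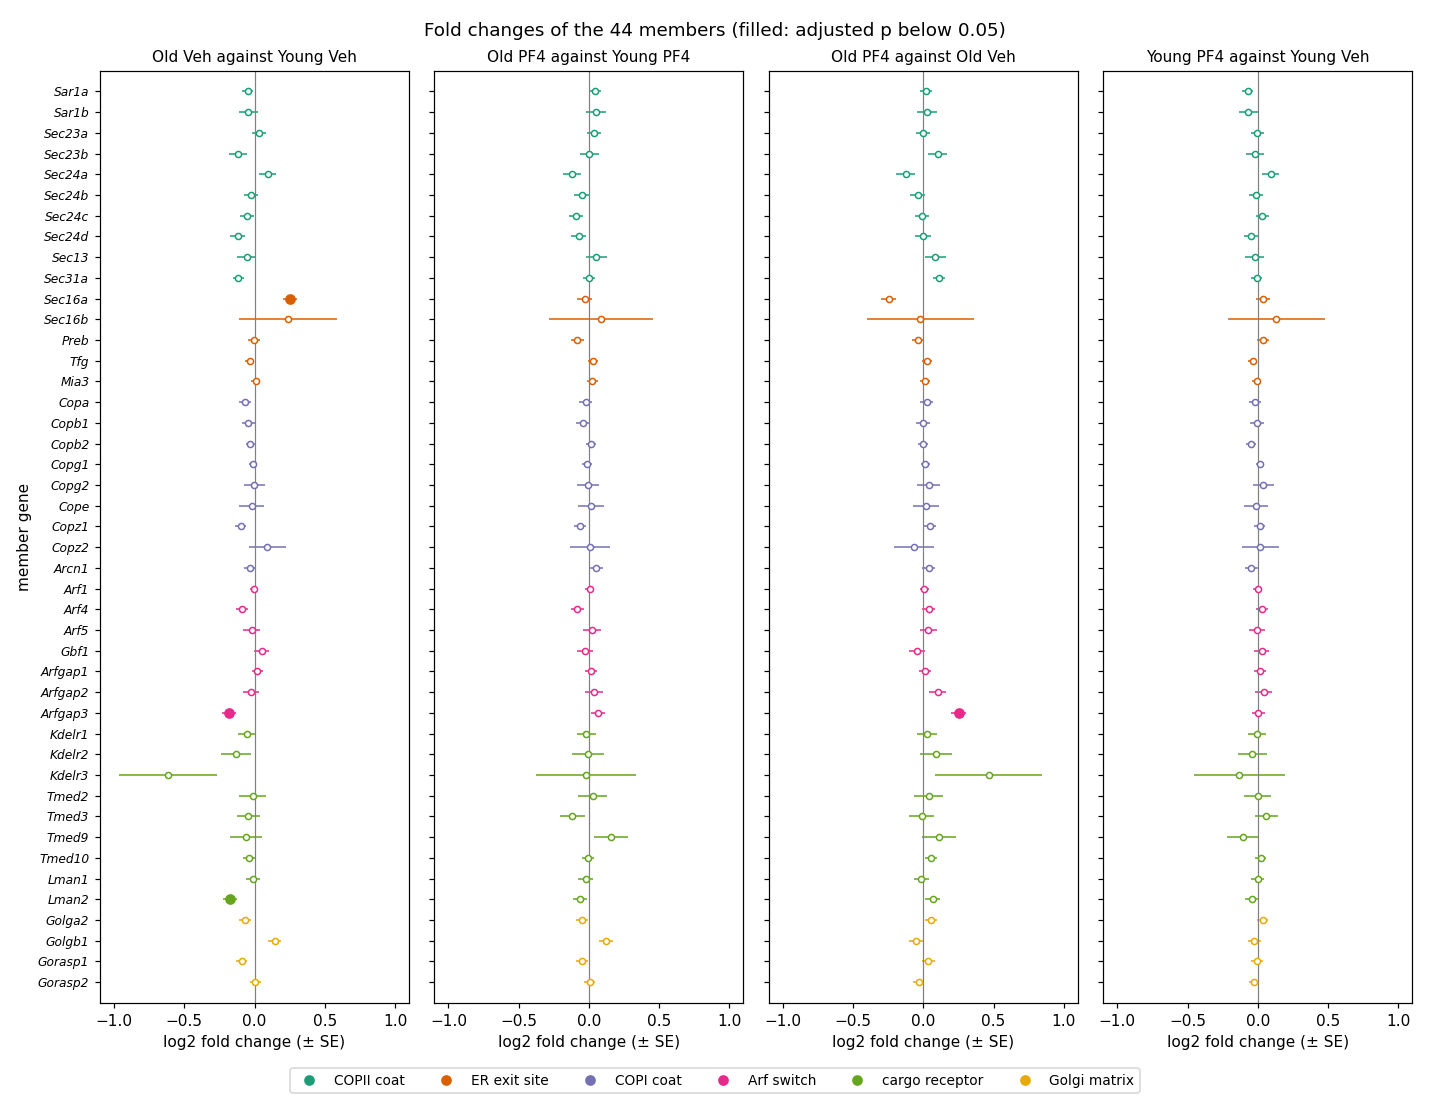
Log2 fold change with SE of each of the 44 members in the 4 comparisons, coloured by role, with filled points for adjusted p below 0.05. Filled points are Sec16a (0.25), Arfgap3 (-0.18) and Lman2 (-0.17) in Old Veh against Young Veh and Arfgap3 (0.25) in Old PF4 against Old Veh.

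Markers of other tissue and of the cell types of the hippocampus were measured beside these values. The summed level of 10 choroid plexus markers, all with reads in every young library, had a median of 1943 CPM (12.0 to 4259) in Young Veh and 47.1 CPM (15.1 to 4259) in Old Veh, and 7 of the 10 had reads in every Old Veh library. None of these markers was called (0 of 10, smallest edgeR adjusted p = 0.355). With a choroid plexus score as a covariate 1 member stayed called in Old Veh against Young Veh, Sec16a, while Arfgap3 was at -0.17 and Lman2 at -0.14. The 8 microglial markers summed to 411 to 525 CPM in Young Veh and 450 to 605 CPM in Old Veh, with 2 of 8 called higher. Of 8 astrocyte markers, which summed to 4075 to 5302 CPM in Young Veh and 4459 to 5354 CPM in Old Veh, 2 were called higher and 1 lower, and of 8 markers of meningeal fibroblasts, at 78.5 to 276 CPM and 49.9 to 223 CPM, 1 was called lower. The 10 hippocampal neuron markers summed to 2690 to 4212 CPM in Young Veh, with a median of 3586, and to 3604 to 5174 CPM in Old Veh, where every library was above that median. None was called, and 2 had an unadjusted p below 0.05 as higher and 1 as lower. Of 8 oligodendrocyte markers (5775 to 7217 CPM in Young Veh and 5555 to 8746 CPM in Old Veh) 0 were called and 2 had an unadjusted p below 0.05, both higher. No marker of the last 5 lists was at 0 in any library. Their part in the values of the members was not tested. In bulk tissue, fewer cells of a type and less RNA per cell cannot be told apart. The labels number Old Veh libraries from 1 to 12, Old PF4 libraries from 13 to 23 and young libraries from 24 to 48, so library number and these groups cannot be told apart, and with library number as a covariate 0 members and 0 genes were called. In that fit of Old Veh against Young Veh, Arfgap3 was at -0.24 (edgeR adjusted p = 0.624), Lman2 at -0.23 (edgeR adjusted p = 0.697) and Sec16a at 0.16.

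Among PF4-treated mice no member passed the test between old and young. Old PF4 against Young PF4 shares no library with the comparison above. It called 0 of 44 members, against 0.332% of all genes, with 21 above 0 and 23 below (51.7% of all genes were above 0) and a median of -0.003. At an unadjusted p below 0.05 there was 1 member (2.27%), against 8.27% of all genes. Sec16a had a median of 56.8 CPM (48.5 to 62.3) in Young PF4 and 57.0 CPM (43.7 to 62.2) in Old PF4, and Arfgap3 one of 21.8 CPM (20.2 to 25.6) and 22.9 CPM (19.7 to 25.7). The ranges of both genes overlapped. The log2 fold changes were -0.030 for Sec16a (SE 0.054, edgeR adjusted p = 0.945) and 0.065 for Arfgap3 (SE 0.051, edgeR adjusted p = 0.81). Without Old PF4 replicate 8 Sec16a was at 0.0037. Golgb1 had the smallest p, with a log2 fold change of 0.12 (SE 0.050, edgeR unadjusted p = 0.0217), from a median of 89.4 CPM in Young PF4 to 95.7 CPM in Old PF4. Lman2 was at -0.064 (SE 0.053). Both moved without Old PF4 replicate 8. Golgb1 was then nearer to 0, at 0.092 (edgeR unadjusted p = 0.073). Lman2 was further from 0, at -0.11 (SE 0.048, edgeR unadjusted p = 0.0229, adjusted p = 0.454), then the smallest p of the members. Golgb1 was lowest, at 0.085, without Old PF4 replicate 1, a library of 3454889 reads. Of the 8 microglial markers, which summed to 416 to 522 CPM in Young PF4 and 476 to 673 CPM in Old PF4, 4 were called higher here, and 1 of 8 astrocyte markers was (4003 to 4620 CPM and 4313 to 5575 CPM). Of 8 oligodendrocyte markers (4458 to 8305 CPM and 6650 to 8067 CPM) 0 were called and 7 had an unadjusted p below 0.05, all higher. The 10 choroid plexus markers were all below 0, with a median log2 fold change of -1.05 and summed medians of 2380 CPM in Young PF4 and 65.9 CPM in Old PF4, and 7 of 8 markers of meningeal fibroblasts were below 0, with a median of -0.30 and summed medians of 151 CPM and 106 CPM. None of the markers in these last lists was called. The part of these markers in the members' values was not tested.

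Old PF4 mice differed from Old Veh mice in 1 called member, Arfgap3, which was higher. Of the members 28 were above 0 and 16 below, where 54% of all genes were above 0. Their median was 0.023 and that of all genes 0.0086. Without Old PF4 replicate 8 the split was 24 above and 20 below, with medians of 0.0048 for the members and 0.0023 for all genes, and 0 members were called. The 1 member called is 2.27% of the list, and 0.0337% of all genes (6 genes) were called, 0.0112% as higher. Because the rule of the list names Arfgap3 and was set with earlier results known, these shares do not test the list. At an unadjusted p below 0.05 there were 3 members (6.82%), against 6.2% of all genes. This comparison and that of Old Veh with Young Veh both use the 12 Old Veh libraries, so their values are set side by side and not counted as 2 separate findings.

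Arfgap3 lay between 19.7 and 25.7 CPM in Old PF4 libraries with a median of 22.9, against 16.38 to 22.003 CPM with a median of 19.5 in Old Veh. All 10 Old PF4 libraries were above the Old Veh median and 7 were above every Old Veh library. The log2 fold change was 0.25 (SE 0.051, edgeR adjusted p = 0.0367), beside -0.18 for Old Veh against Young Veh. Its size hardly moved with single libraries left out (0.23 to 0.27 over 22 fits), but the call was kept in only 6 of them, those without Old Veh replicates 4, 9, 11 or 12 or Old PF4 replicates 1 or 2, and the edgeR adjusted p ranged from 0.0192 to 0.161. The call held in 6 of 10 other settings, with an adjusted p of up to 0.231, and was lost with no count filter (0.25), with only the groups compared (0.25), with the length index as a covariate (0.25) and without the libraries of fewer than 5000000 reads (0.25). It was also lost with library number as a covariate (0.28). Without Old PF4 replicate 8 it was 0.26 (edgeR adjusted p = 0.0634). The correlation of Arfgap3 with the length index of the libraries was near 0 (Pearson r = -0.029 and Spearman rho = 0.042 over 47 libraries with group means removed, permutation p = 0.842 and 0.787).

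Sec16a lay between 43.7 and 62.2 CPM in Old PF4 libraries with a median of 57.0, against 57.0 to 72.5 CPM with a median of 66.5 in Old Veh. All 10 Old PF4 libraries were below the Old Veh median and 5 were below every Old Veh library. The log2 fold change was -0.25 (SE 0.054), which missed the threshold (edgeR adjusted p = 0.0738), beside 0.25 for Old Veh against Young Veh. It passed in DESeq2 (-0.24), without Old Veh replicate 11 (edgeR adjusted p = 0.0193) or 12, with age in months as a covariate and with the replicate block (-0.27). These are 3 of 10 other settings, in which the log2 fold change ranged from -0.27 to -0.20 and the adjusted p reached 0.414. With the length index as a covariate, with which Sec16a correlated and which averaged 0.039 in Old Veh and -0.025 in Old PF4, it was -0.20 (edgeR adjusted p = 0.170). Without Old PF4 replicate 8, the lowest of its group for Sec16a at 43.7 CPM, it was -0.21 (edgeR adjusted p = 0.162).

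In the other roles the members with the smallest p in Old PF4 against Old Veh were Sec31a, Copz1, Tmed10 and Golga2, none of them called. Sec31a had a median of 132 CPM (113 to 138) in Old PF4 and 120 CPM (110 to 132) in Old Veh, with a log2 fold change of 0.11 (SE 0.042, edgeR unadjusted p = 0.0131). It was at 0.13 (SE 0.042, edgeR unadjusted p = 0.0030, adjusted p = 0.414) without Old PF4 replicate 8, the lowest of its group for Sec31a. Copz1 was at 0.049 (SE 0.042), the cargo receptor Tmed10 at 0.055 (SE 0.042) and the matrix protein Golga2 (GM130), which Swi5 overlaps with 29163 reads, at 0.054 (SE 0.044). Without Old PF4 replicate 8, the lowest of its group for Golga2 at 64.5 CPM, Golga2 was at 0.093 (SE 0.038, edgeR unadjusted p = 0.0178, adjusted p = 0.622). Lman2 was at 0.066 (SE 0.053), and at 0.020 without Old PF4 replicate 8, which at 151 CPM was the highest of its group. The summed choroid plexus markers had medians of 65.9 CPM in Old PF4 and 47.1 CPM in Old Veh, and 0 of 10 were called. The 10 hippocampal neuron markers summed to 2687 to 4045 CPM in Old PF4 and 3604 to 5174 CPM in Old Veh. Of these 8 were below 0, 2 with an unadjusted p below 0.05. The 8 microglial markers (476 to 673 CPM and 450 to 605 CPM) were all above 0, with a median log2 fold change of 0.097 and 2 with an unadjusted p below 0.05, and the 8 oligodendrocyte markers (6650 to 8067 CPM and 5555 to 8746 CPM) were all above 0 with a median of 0.067. None of the markers in these lists was called, and their part in the values of Arfgap3 and Sec16a was not tested.

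In young mice no member passed the test for PF4: 0 of 44 were called and 0 had an unadjusted p below 0.05. Across all genes 0% were called by edgeR and by DESeq2, and 213 (1.2%) had an unadjusted p below 0.05 in edgeR. Arfgap3 was at 0.0036 (SE 0.047) with a median of 21.8 CPM in Young PF4 and 22.2 CPM in Young Veh, and Sec16a at 0.035 (SE 0.051) with 56.8 and 55.2 CPM. Without Young Veh replicate 4 Sec16a was at 0.0096, and the split of the members moved from 17 above 0 and 27 below to 26 above and 18 below. The sign of so small a value for Arfgap3 turned with the setting.

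The difference between the PF4 effects in old and young mice was tested in the same fit. No member was called, and no gene was (0%, with 707 genes, 3.98%, at an unadjusted p below 0.05, and 0 called by DESeq2). The 3 members with an unadjusted p below 0.05 were Sec16a, with a difference of -0.28 (SE 0.074, edgeR unadjusted p = 0.000403, adjusted p = 0.829), Arfgap3, with 0.25 (SE 0.070, unadjusted p = 0.000878, adjusted p = 0.868), and Sec24a, a cargo-binding COPII subunit, with -0.22 (SE 0.090, unadjusted p = 0.0196). Without Old PF4 replicate 8 there were 4, with Sec31a added (0.13, SE 0.057, edgeR unadjusted p = 0.0220), and none was called. The same 4 had an unadjusted p below 0.05 without Young Veh replicate 4. Sec24a had medians of 30.7 CPM in Young Veh, 32.9 in Young PF4, 34.5 in Old Veh and 30.7 in Old PF4. The effects of PF4 at the 2 ages were therefore not shown to differ for any member after adjustment. Across the 47 libraries, with group means removed, Arfgap3 and Sec16a were correlated at r = -0.218 and rho = -0.219 (permutation p = 0.155 and 0.148), and at r = -0.237 without the 2 farthest libraries.

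Ratios of related genes within a library do not depend on how libraries are scaled. Of 12 such log2 ratios, each in 4 comparisons, 0 of 48 passed the threshold and 4 had an unadjusted p below 0.05 (two-sided permutation test with 100000 resamples). The smallest p was that of Sec23a over Sec23b, the interchangeable inner coat subunits. Their log2 ratio averaged 1.83 ± 0.11 (SD, n = 13) in Young Veh and 1.98 ± 0.10 (SD, n = 12) in Old Veh, a difference of 0.15 (permutation p = 0.00171, adjusted over the 48 tests p = 0.0821). The same ratio was 1.88 ± 0.12 (SD, n = 10) in Old PF4, a difference of -0.10 from Old Veh (permutation p = 0.0407, adjusted p = 0.44). Relatives with close sequences may share reads, so these ratios also depend on how such reads were counted.

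Many members followed the length index of the library. With group means removed, 23 of 44 were correlated with it past the threshold by Pearson's r (9 positively and 14 negatively, permutation within groups, adjusted over 132 relations), but only 7 by Spearman's rho. An r at least as far from 0 as the weakest of these (0.399) was found in 54.5% of the members and in 32.3% of all genes tested, and the index itself is built from long and short genes. The highest was Gbf1, the Arf exchange factor (r = 0.639, rho = 0.385, permutation p = 0.00018 and 0.00796, r = 0.361 without the 2 farthest libraries). The lowest was Cope, a small COPI subunit (r = -0.816, rho = -0.614, both at the smallest p that the permutations allow, 1e-05, and r = -0.647 without the 2 farthest). Cope reached 183 CPM in Young Veh replicate 4 and 165 CPM in Old PF4 replicate 8, against group medians of 100 and 102. For Sec16a r was 0.489 and rho 0.317 (permutation p = 0.00155 and 0.0325), and r fell to 0.216 without the 2 farthest libraries, so this relation rests largely on them. With the index as a covariate, Sec16a was at 0.21 in Old Veh against Young Veh and was still called (edgeR adjusted p = 0.0033), and the index averaged 0.039 ± 0.072 (SD, n = 12) in Old Veh and -0.017 ± 0.12 (SD, n = 13) in Young Veh. Arfgap3 in Old PF4 against Old Veh kept its size with that covariate (0.25) but not its call. With the choroid plexus score 6 members were correlated past the threshold by Pearson's r in the same family, 4 positively (Tmed3, Copz2, Copg2 and Tmed10) and 2 negatively (Arf1 and Arfgap1). Tmed3, a cargo receptor, had r = 0.543 and rho = 0.505 (permutation p = 4e-05 and 0.00037, r = 0.469 without the 2 farthest libraries). Arf1 had r = -0.572 and rho = -0.590 (permutation p = 6e-05 and 7e-05, r = -0.571 without the 2 farthest). Tmed10 did not pass by Spearman's rho.

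**Figure D4:**
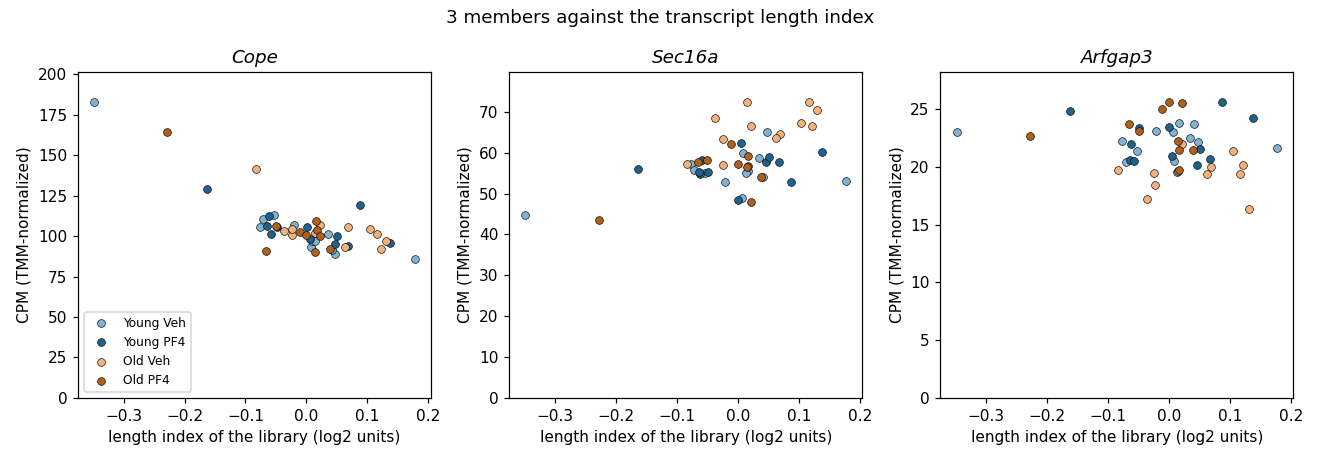
TMM-normalized CPM of Cope, Sec16a and Arfgap3 against the length index in the 47 libraries, coloured by group. The libraries at -0.348 and -0.228 are Young Veh replicate 4 and Old PF4 replicate 8, which hold the highest Cope and the lowest Sec16a of their groups and ordinary values of Arfgap3.

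Further genes of the route, from a list of 76 SNAREs and tethers, TRAPP subunits, other cargo receptors, and golgins and Arf relatives, were tested where they passed the count filter (72 genes). None was called in any comparison. In Old Veh against Young Veh 5 of 72 (6.94%) had an unadjusted p below 0.05, against 15.2% of all genes, and the median log2 fold change was -0.012. The smallest p was that of Arf6, an Arf of the plasma membrane and endosomes, with a log2 fold change of -0.16 (SE 0.059, edgeR adjusted p = 0.142). Nbas, a subunit of the tether at the ER, was at 0.16 (SE 0.066), Scfd2 at 0.15 (SE 0.058), Arfgef1, an Arf exchange factor of the trans-Golgi, at 0.096 (SE 0.046) and Rab1a, the GTPase of the early route, at 0.055 (SE 0.026). In Old PF4 against Old Veh 3 of 72 (4.17%) had an unadjusted p below 0.05, against 6.2% of all genes: Arf6 at 0.15 (SE 0.063), the SNARE Use1 at 0.16 (SE 0.071) and Tmed8 at -0.17 (SE 0.078). In Old PF4 against Young PF4 4 of 72 (5.56%) did, against 8.27% of all genes (Bet1, Nbas, Stx5a and Surf4), and in Young PF4 against Young Veh 1 (1.39%) did, against 1.2% (Gcc2, 0.094, SE 0.045).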

How the data were processed

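For 47 libraries the authors deposited the raw read counts of each gene. Per the labels, reads were trimmed with Trim Galore 0.3.7 and aligned with STAR 2.5.3a to GRCm38, and counts were analysed with DESeq2; the counting tool and annotation are not given in the sources used here. Smart-Seq2 reads without molecular identifiers were counted, so depth limits precision by more than counting error. The study left out samples of low read number. Groups came from the labels, which number libraries but name no animals, so p-values measure the spread between libraries. The lowest chi-square per degree of freedom between libraries of a group was 1.95 over 255 pairs, so none was a duplicate.

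From the counts, edgeR 4.0.16 (R 4.3.3) fitted the 4 groups together by quasi-likelihood (TMM, filterByExpr). A gene was called when its p, adjusted by the Benjamini-Hochberg method over all 17778 genes, was below 0.05. SE is the size of the log2 fold change over the square root of F. CPM are TMM-normalized. Steps were tested on simulated data. DESeq2 1.42.0, named in the study's methods, was an alternative, as were other filters, size factors, covariates, a replicate block and libraries left out. The length index is the mean gene-centred log2 CPM of genes with a longest transcript of at least 4594 bases minus that of genes of at most 2006 bases (lengths for 99.4% of genes tested, GENCODE on GRCm38). Any member could be named; statistics are given for members with adjusted p below 0.05 in any comparison or unadjusted p below 0.05 in the one described, Arfgap3, Sec16a and the smallest p of each role. The members and lists were chosen with earlier results of these data known. Ctage5 was read under its current symbol, Mia2. Unmapped columns of values numbered 0.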

Additional observations from a re-analysis of the deposited data

Results flagged for a closer look

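In 13 of 44 members the highest or lowest Old PF4 library lay further from the other 9 than Dixon's limit for 10 samples allows. Chance flags about 1 in 20 such groups, and groups of 12 or 13 were not tested. In 12 of the 13 the library was Old PF4 replicate 8. It was the highest for Sar1a (238 CPM), Sar1b (114 CPM), Sec23a (313 CPM), Sec23b (91.8 CPM) and Sec13 (67.1 CPM) of the COPII coat. It was also the highest for Cope (165 CPM), Tmed2 (46.03 CPM), Tmed9 (67.1 CPM) and Lman2 (151 CPM). It was the lowest for Sec31a (113 CPM), Gbf1 (65.6 CPM) and Golga2 (64.5 CPM). Its total count was 12380047 and its length index -0.228, the lowest of the Old PF4 group. For Sec16b, Old PF4 replicate 1 was the lowest at 0.0 CPM, with 0 reads in a library of 3454889.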

How the results depend on the processing

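Depth limits Kdelr3 and Sec16b, and the 8 libraries of fewer than 5000000 reads included 4 of the 12 Old Veh libraries: without them 0 members and 176 genes were called in Old Veh against Young Veh, and 0 members and 0 genes in Old PF4 against Old Veh, while Arfgap3 was at -0.17 and 0.25 and Sec16a at 0.22 in the first. The causes of the changes below were not tested. Old Veh against Young Veh called 901 genes with the length index as a covariate, 0 genes and 0 members with library number, and 1 member with the choroid plexus score. Old PF4 against Young PF4 called 90 genes in DESeq2, 21 with only the groups compared, 98 with the length index and 0 with library number. Old PF4 against Old Veh called 24 genes and 2 members in DESeq2, 0 and 0 with only the groups compared, with the length index or with library number, 0 members with no count filter, 10 genes with the choroid plexus score, and 14 genes and 2 members with age in months. The difference of the PF4 effects called 1 gene with no count filter. Signs reversed with library number for Arf4 (0.031) and Sec24d (0.017) in Old Veh against Young Veh, and for Arfgap3 in Young PF4 against Young Veh in DESeq2 (-0.00945) and without the libraries of fewer than 5000000 reads (-0.018). By Spearman's rho, an alternative chosen after seeing the data, 7 members followed the length index and 0 the total count (3 by Pearson's r). The labels do not say whether replicate numbers pair the libraries, so pairing was not assumed in the main fit. Of same-numbered pairs, 3 of 12, 3 of 10, 5 of 10 and 4 of 12 had correlated deviations above 0.1. In Old PF4 against Old Veh the median correlation was 0.112 for same numbers and -0.032 for other numbers. There 2 of 10 libraries matched best with their own number. In the other comparisons the same-number medians ranged from -0.082 to -0.001. With the replicate block, Old PF4 against Young PF4 called 90 genes, Old PF4 against Old Veh 10 genes and 2 members, and Arfgap3 in Young PF4 against Young Veh was at -0.000565. With 1 library left out, Old Veh against Young Veh called 356 to 593 genes and 1 to 4 members, Old PF4 against Young PF4 36 to 91 genes, Old PF4 against Old Veh 0 to 20 genes and 0 to 2 members, and 0 to 1 paralog ratios passed. Sec16a in Old PF4 against Young PF4 then ranged from -0.050 to 0.0037, and Arfgap3 in Young PF4 against Young Veh from -0.010 to 0.018. Of 256 other values for single members, 230 kept their sign and side of the threshold, 16 lost and 5 gained a call, and 5 changed sign.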
